A study of Homo sapiens with 43 samples.

Results

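The replication-dependent histone gene cluster on the short arm of human chromosome 6 was examined across 25 eCLIP peak lists from HEK293T cells, an embryonic kidney line. Members were all called peaks, on either strand, that overlapped by at least 1 nt one of 3 windows of hg19: chr6:26017000-26286000, chr6:27100000-27115500 and chr6:27775000-27862000. They numbered 1664 of the 1430241 peaks called in the series, 881 on the plus strand and 783 on the minus strand. In eCLIP, proteins are crosslinked to RNA by ultraviolet light and immunoprecipitated, and RNA is recovered from a gel slice above the protein's size. Of the 25 libraries, 11 came from RNA-binding proteins (RBPs). The 5 wild-type libraries used untagged cells with antibodies to HNRNPC, FMR1, RBFOX2, LIN28 or DGCR8. The 6 tagged libraries used an antibody to the tag, FLAG for FMR1 and DGCR8, and V5 for LIN28, RBFOX2 and both HNRNPC isoforms, 1 and 2. The tags had been integrated into the endogenous genes by CRISPR/Cas9, per the series title. The other 14 libraries, FLAG-only and V5-only, name a tag antibody and no RBP. They comprised 1 library per antibody from each of 7 gel ranges 75 kDa wide that began 25 kDa apart. The labels do not say whether cells of the tag-only libraries expressed a tag, which LIN28 paralog was tagged, or whether a tagged line was 1 clone. Every state of every RBP was sampled by 1 library, and read totals were not used, so depth in reads is unknown.

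Replication-dependent histone genes encode the core histones H2A, H2B, H3 and H4, around which DNA is wound, and the linker histone H1. They are short and lack introns, and their messenger RNAs are made mainly in S phase. Instead of a poly(A) tail the mRNA ends in a conserved stem-loop, which is bound by the stem-loop binding protein SLBP and is needed for processing, translation and decay of the message.

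The stem-loop is shown because it is the element that sets these transcripts apart. It was searched on the transcript strand, in GENCODE 29 transcripts, as a pattern of 16 bases: GG, a free pair, CTTTT, a free base, AG, a free base and GCC. The sequences found are written 5′ to 3′ in DNA letters, with the stem in lower case and the loop of 4 bases in capitals. The first was held by 9 genes of the H2A, H2B and H3 families, the second by 4 H4 genes, the third by 4 genes of H2B and H3, and the last pair by 1 gene each.
H2A, H2B and H3 genes: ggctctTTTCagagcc
H4 genes: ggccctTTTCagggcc
H2B and H3 genes: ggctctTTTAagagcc
HIST1H4I: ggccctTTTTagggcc
HIST1H2AG: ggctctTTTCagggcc
Counting only pairs of A with T and of G with C, the arms of the stem are complementary throughout in the first 4 sequences. In that of HIST1H2AG a T stands opposite a G at 1 position. In the RNA this is U opposite G, which was not counted as a pair. The H4 sequences have the same stem and differ in the loop. The motif occurred in 38 of 83129 protein-coding transcripts (0.0457%) and in 22 of the 65 transcripts (33.8%) of the protein-coding HIST1 genes of chromosome 6. By gene it was found in 19 of 55 (34.5%), and 15 genes outside that set also held it. Whether those 15 include other histone genes is not given here. A gene model that stops at the stop codon cannot hold the motif, and a stem-loop that departs from the fixed letters is missed. A match describes letters, not binding.

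The 55 protein-coding HIST1 genes comprised 6 for H1, 12 for H2A, 15 for H2B, 10 for H3 and 12 for H4. Coding lengths were 621 to 678 nt for H1 and 294 to 408 nt for the 49 core histone genes. The annotation used here is of another build than the peak lists, so it gave names, lengths and the order of neighbours only, and regions below carry coordinates of hg19 rather than gene names. Copies of a core histone family are alike in much of their coding sequence. How reads were divided among copies was not examined and is uncertain.

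Peaks lay in short blocks separated by long stretches without peaks. Merging peaks of 1 strand that were at most 500 nt apart gave 38 regions, 18 on the plus and 20 on the minus strand, numbered here along the chromosome. They covered 15220 nt, 4.10% of the windows, with 23 regions in the first window, 6 in the second and 9 in the third. The median region was 425 nt long, and 28 of the 38 measured 300 to 550 nt. Only 4 exceeded 600 nt: region 6 with 644 nt, region 20 with 679 nt, region 10 with 726 nt and region 16 with 899 nt. No regions overlapped on opposite strands.

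Minus-strand and plus-strand regions often stood back to back. In 8 pairs a minus-strand region was followed, at a gap of 263 to 370 nt, by a plus-strand region: regions 8 and 9, 14 and 15, 17 and 18, 24 and 25, 28 and 29, 30 and 31, 34 and 35, and 37 and 38. In the annotation, 10 pairs of HIST1 genes lay head to head within 500 nt, and each was an H2A gene beside an H2B gene, which are known to share a promoter. Members of a pair were not always called alike. Region 37 had a significant peak in 9 libraries and its partner, region 38, in 1. Region 8 was significant in 7 libraries and region 9 in 4. Regions 30 and 31 stood close, with 6 and 7 libraries.

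A peak was called significant where the authors' −log10 p was at least 3 and their log2 fold over the size-matched input at least 3, or 8-fold. By this rule 217 of the 1664 cluster peaks (13.0%) were significant, 107 on the plus and 110 on the minus strand. Over all peaks of the series the share was 5.96%. The cluster's significant peaks were unevenly divided between kinds of library. The 11 RBP libraries held 11 of them, among 521 cluster peaks (2.11%), where 6.69% of all their peaks were significant. The 7 FLAG-only libraries held 146 among 596 (24.5%, against 7.76% of all), and the 7 V5-only libraries held 60 among 547 (11%, against 3.14% of all). The range of 125 to 200 kDa supplied many of these, and without it the FLAG-only count was 100 of 522 (19.2%) and the V5-only count 30 of 475 (6.32%), against 5.78% and 1.82% of all peaks. Cluster peaks were longer than those of the whole lists. Their median was 48 against 34 nt in FLAG-only, 49 against 32 nt in V5-only and 45 against 32 nt in RBP libraries. Neither these shares nor those below were matched for peak length, and its part in them was not tested.

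Most RBP libraries had called peaks in the cluster but no significant one. In the sentences that follow, the share of all peaks of the library that were significant stands beside the cluster's, and a count of 0 carries the largest share that 3 peaks would give. HNRNPC, which binds uridine-rich stretches of nascent transcripts, had 0 of 30 in wild type (up to 10.0% allowed; all peaks 2.15%), 0 of 12 in V5 isoform 1 (up to 25.0%; all peaks 0.76%) and 0 of 10 in V5 isoform 2 (up to 30%; all peaks 1.97%). RBFOX2, a splicing regulator, had 0 of 40 in wild type (up to 7.50%; all peaks 7.03%) and 0 of 34 in V5 (up to 8.82%; all peaks 4%). DGCR8, which works with DROSHA to cut primary microRNA transcripts, had 0 of 50 in wild type (up to 6.00%; all peaks 4.16%) and 0 of 43 in FLAG (up to 6.98%; all peaks 1.78%). In each of these libraries the share allowed by a count of 0 exceeded the library's own share, so a difference from it was not detectable at this number of peaks. FMR1, a translational regulator carried on messenger RNAs, had 0 of 64 in wild type (up to 4.69%; all peaks 5.23%) and 6 of 85 in FLAG, 7.06% with a 95% Wilson interval of 3.28% to 14.6% (all peaks 17.2%). LIN28, best known for binding the let-7 precursor, had 0 of 65 in wild type (up to 4.62%; all peaks 4.73%) and 5 of 88 in V5, 5.68% with an interval of 2.45% to 12.6% (all peaks 10.6%). In the FMR1 and LIN28 wild-type libraries the share allowed by 0 was close to that of the whole list, and the upper bounds of their 95% Wilson intervals, 5.66% and 5.58%, lay above it, so no difference from the list was shown there either. The interval of FMR1 FLAG lay below the share of its list, and that of LIN28 V5 included the share of its list. The only RBP libraries with significant cluster peaks, FMR1 FLAG and LIN28 V5, were tagged ones. This depended on the threshold: at a log2 fold of at least 2, FMR1 wild type had 1, LIN28 wild type 3 and DGCR8 FLAG 1, and among the 1000 peaks of highest fold LIN28 V5 had 0. These intervals and limits cover only the counting of peaks, and peaks beside each other may come from the same RNA.

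FLAG-only libraries had significant cluster peaks in every gel range. At 25 to 100 kDa the count was 5 of 87, or 5.75% (2.48% to 12.8%), beside 1.21% of all peaks. At 50 to 125 kDa it was 11 of 87, or 12.6% (7.21% to 21.2%), beside 3.75%. At 75 to 150 kDa it was 23 of 84, or 27.4% (19.0% to 37.7%), beside 6.7%. The cluster's interval lay above the share of the whole list in these ranges, and in the next ones as well. At 100 to 175 kDa 19 of 86 were significant, or 22.1% (14.6% to 31.9%), beside 6.43%. At 125 to 200 kDa 46 of 74 were, or 62.2% (50.8% to 72.4%), beside 22.1%, the highest shares of any library. At 150 to 225 kDa the count was 26 of 85, or 30.6% (21.8% to 41.0%), beside 11.5%. This was the second highest share among FLAG-only libraries. At 175 to 250 kDa it was 16 of 93, or 17.2% (10.9% to 26.1%), beside 6.86%. These intervals treat each peak as independent, but neighbouring peaks may come from the same RNA, so they may be too narrow. The 46 significant peaks at 125 to 200 kDa, for example, fell in 21 regions, and the 23 at 75 to 150 kDa in 19.

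V5-only libraries showed the cluster above the whole list in 6 of 7 ranges. The exception was 50 to 125 kDa, with 0 of 90 (up to 3.33% allowed) beside 1.1% of all peaks. At 25 to 100 kDa 1 of 81 was significant, or 1.23% (0.218% to 6.67%), beside 0.555%, so that the interval included the share of the list. At 75 to 150 kDa the count was 7 of 70, or 10.0% (4.93% to 19.2%), beside 2.69%. From this range upward the intervals lay above the list. At 100 to 175 kDa it was 9 of 83, or 10.8% (5.81% to 19.3%), beside 1.92%. At 125 to 200 kDa it was 30 of 72, or 41.7% (31.0% to 53.2%), beside 11.5%, so both antibodies had their highest shares in this range. At 150 to 225 kDa it was 7 of 87, or 8.05% (3.95% to 15.7%), beside 3.1%. At 175 to 250 kDa it was 6 of 64, or 9.38% (4.37% to 19.0%), beside 1.86%. The same limit holds for these intervals, since the 30 significant peaks at 125 to 200 kDa fell in 17 regions.

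**Figure D1:**
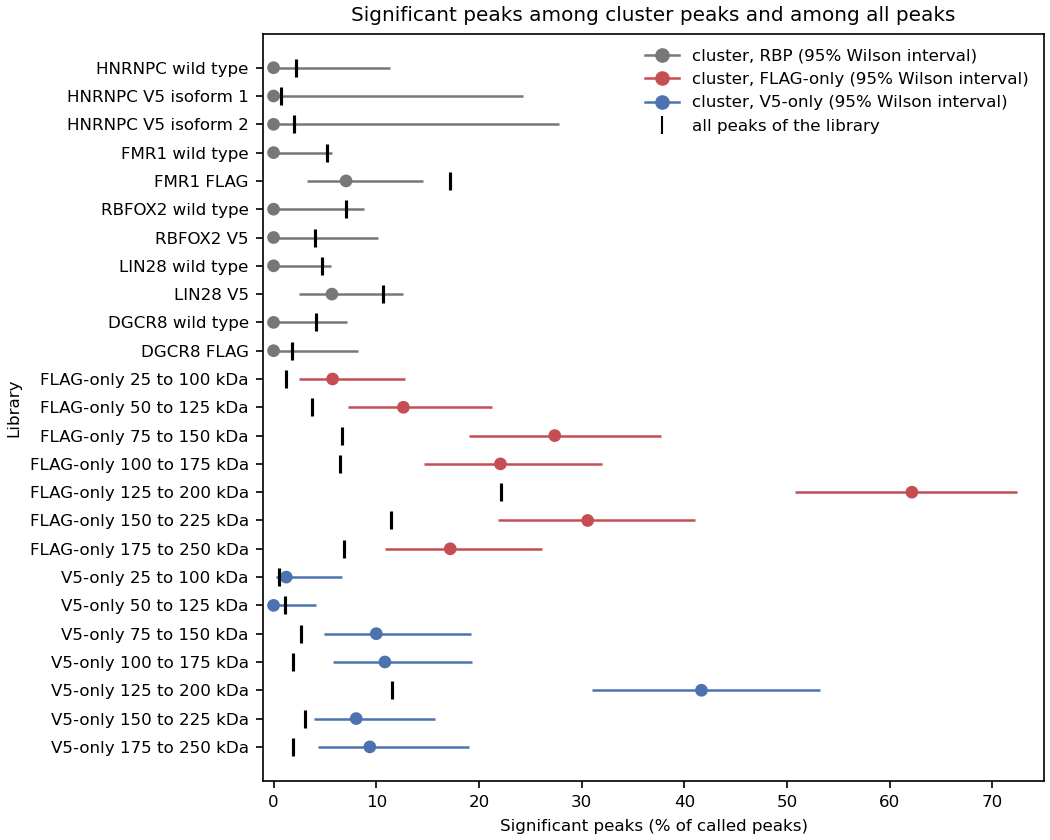
Percent of called peaks that were significant in each of the 25 libraries: coloured points are cluster peaks with 95% Wilson intervals (grey RBP, red FLAG-only, blue V5-only) and black ticks all peaks of the library. The cluster point lies above the tick in 7 of 7 FLAG-only and 6 of 7 V5-only libraries and in 0 of 11 RBP libraries.

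The folds of all called cluster peaks were also compared without a threshold. The median log2 fold of cluster peaks minus that of all peaks of the library was below 0 in 11 of 11 RBP libraries and above 0 in 14 of 14 tag-only libraries, so the kinds did not overlap. HNRNPC stood lowest, with median cluster log2 folds of −1.70 in wild type, −1.31 in V5 isoform 1 and −1.81 in V5 isoform 2, where all peaks had 1.05, 1.11 and 1.19. RBFOX2 also had medians below 0, −0.63 in wild type and −0.02 in V5, where all peaks had 1.5 and 1.3. In these libraries most cluster peaks were thus relatively less abundant in the immunoprecipitate than in the input. In HNRNPC wild type 80.0% of cluster peaks had a negative fold, against 10.8% of all peaks, and in RBFOX2 wild type 80.0% against 12.7%. The median cluster log2 fold was 0.69 in FMR1 wild type, 1.37 in FMR1 FLAG, 0.71 in LIN28 wild type, 1.09 in LIN28 V5, 0.72 in DGCR8 wild type and 0.41 in DGCR8 FLAG. These were positive, but each lay below the median of its library, by 0.42 in LIN28 V5 and by more in the others. Among tag-only libraries the centred median averaged 0.43 ± 0.16 in FLAG-only and 0.23 ± 0.13 in V5-only (SD, n = 7 ranges each).

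As a share of a library's significant peaks, the cluster made up 0.455% ± 0.186 in the tag-only libraries (SD, n = 14) and 0.00899% ± 0.0211 in the RBP libraries (SD, n = 11). The difference of means, −0.446 percentage points, exceeded the spread between libraries (two-sided permutation test with 100000 resamples, p = 2e-05, the smallest it can give, adjusted p = 0.0001 by Benjamini-Hochberg over 5 tests). Libraries of 1 RBP and of overlapping gel ranges are not independent, and nothing says that libraries came from separate cultures, so this and the other p-values measure a spread between these libraries that may be technical. Tag-only and RBP libraries also had different inputs and gel cuts, and these cannot be told apart from the presence of an RBP. As a share of called rather than significant peaks the kinds overlapped, at 0.0169% to 0.167% in RBP and 0.117% to 0.164% in tag-only libraries.

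The effect of the antibody was examined within gel ranges. FLAG-only exceeded V5-only in the share of cluster peaks that were significant in 7 of 7 ranges, by 13.8 ± 6.63 percentage points, from means of 25.4% ± 18.3 and 11.6% ± 13.9 (SD, n = 7; two-sided exact sign-flip permutation test, p = 0.0156, the smallest possible, adjusted p = 0.026). The share of all peaks that were significant was also higher in FLAG-only in each range. The median fold of the cluster relative to its own list was higher in FLAG-only in 7 of 7 ranges as well, by 0.20 ± 0.10 on the log2 scale (SD, n = 7; exact sign-flip p = 0.0156, adjusted p = 0.026). At 50 to 125 kDa that difference was only 0.00182. The cluster's share of significant peaks did not differ beyond the spread between ranges, at 0.483% ± 0.0974 in FLAG-only and 0.427% ± 0.253 in V5-only, and was higher in FLAG-only in 4 of 7 ranges (difference 0.0558 ± 0.271 points, exact sign-flip p = 0.609, adjusted p = 0.609). Both antibodies of a range appear to share 1 input, since 7 inputs are labelled by gel range.

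**Figure D2:**
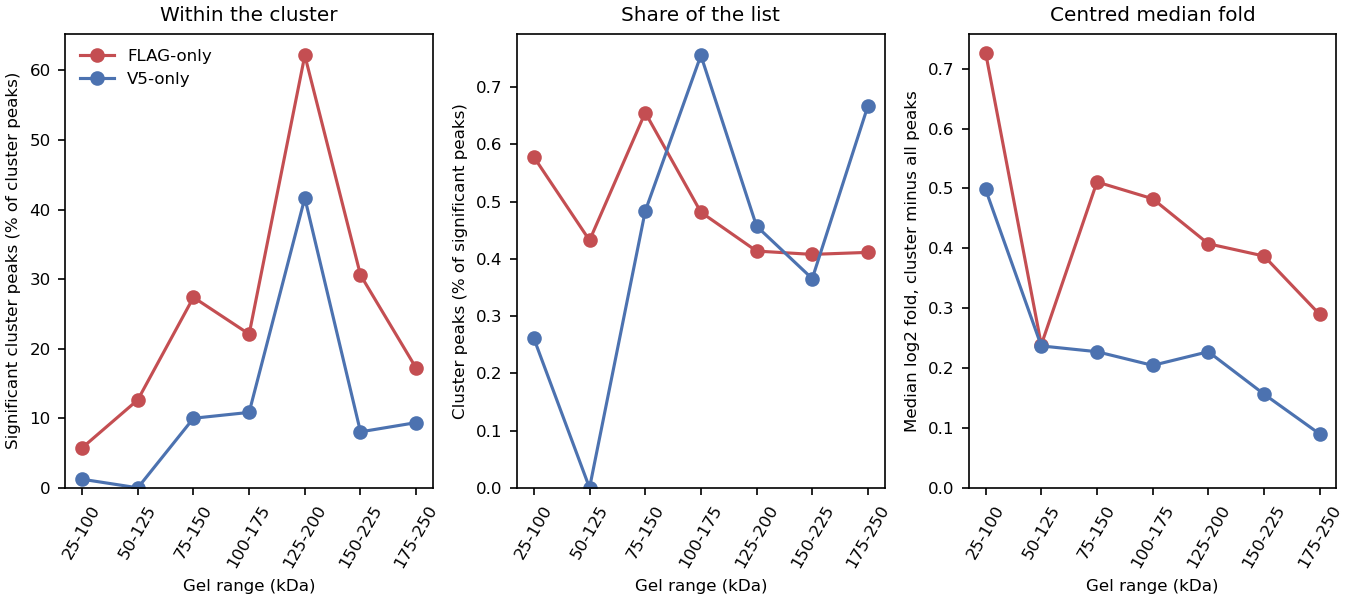
FLAG-only (red) and V5-only (blue) libraries by gel range in kDa, 1 library per point: percent of cluster peaks that were significant, cluster peaks as percent of the library's significant peaks, and median log2 fold of cluster peaks minus that of all peaks. FLAG-only lies higher in all 7 ranges in the first and last panels, though at 50-125 kDa the last differs by only 0.00182, and in 4 of 7 ranges in the middle panel.

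Many of the regions, which were merged from the peaks of all 25 lists, had called peaks in most libraries. Of the 38 regions, 22 had a called peak in at least 20 libraries, 5 in all 25 and 3 in a single library. Significant peaks fell in 31 regions. FLAG-only libraries had them in 28 regions and V5-only libraries in 22. Since the inputs of a gel range appear to be shared, no overlap between the antibodies is given, and their values stand side by side below. RBP libraries had them in 7 regions, and 2 of these, regions 1 and 26, had no significant peak in any tag-only library. Region 26 was called in LIN28 V5 alone. In region 1 the log2 fold reached 3.49 in FLAG-only and 3.63 in V5-only, past the fold but short of the p-value.

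**Figure D3:**
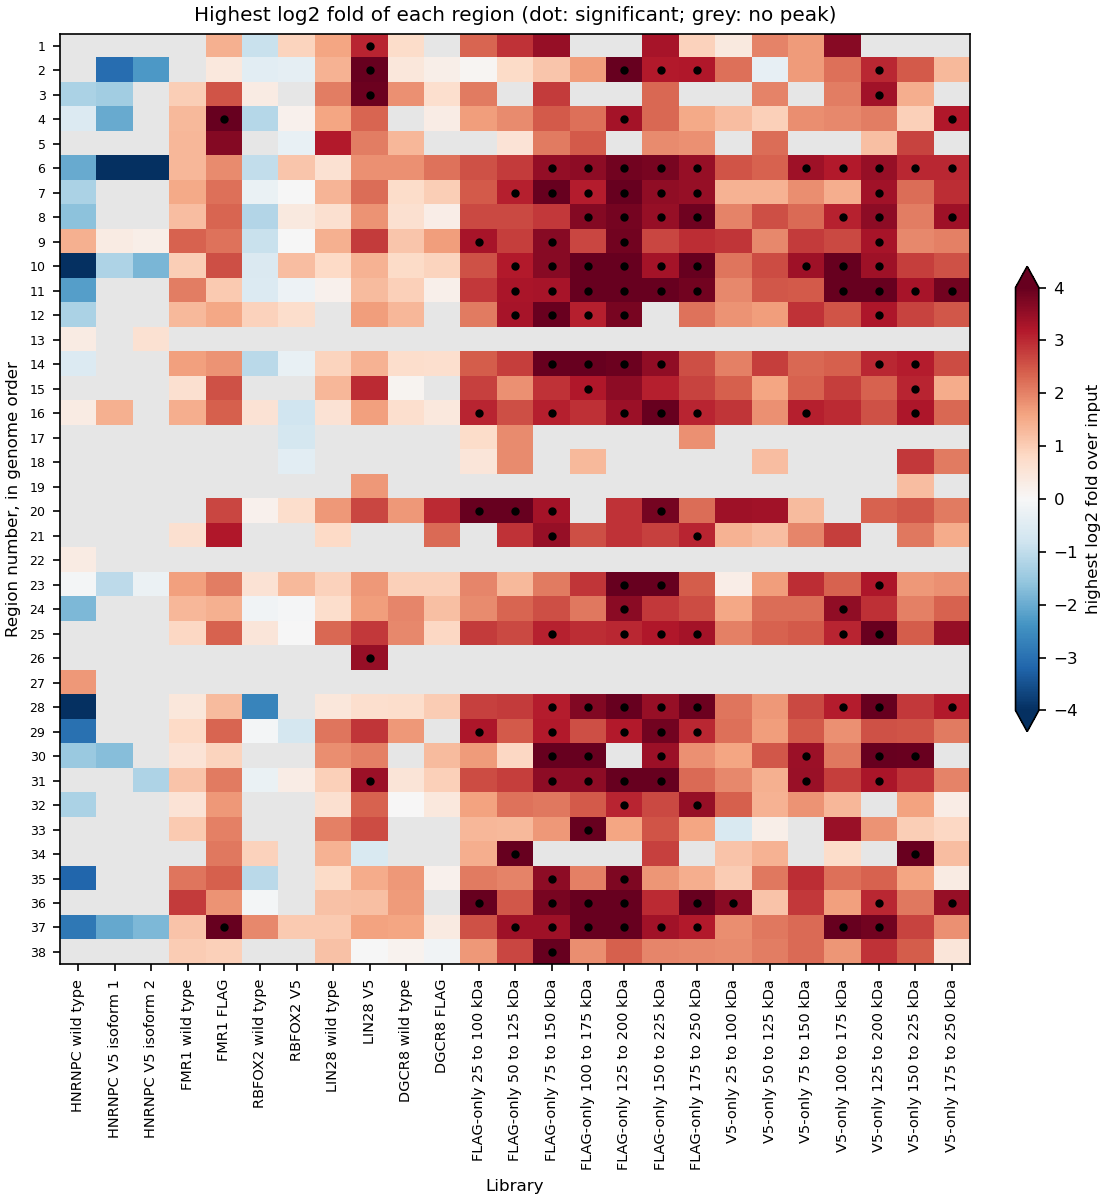
Highest log2 fold over input of any peak in each of the 38 regions (vertical axis, genome order) for each of the 25 libraries (horizontal axis), with colours limited to −4 to 4, grey where no peak was called and a dot where a peak was significant. The dots lie mostly in the FLAG-only and V5-only columns, and the blue fields mostly in HNRNPC and RBFOX2 columns.

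Regions 6 and 11 were significant in the most libraries, 10 each, all of them tag-only. Region 6, at chr6:26056022-26056665 on the minus strand, was called in all 25 libraries and held 28 significant peaks, the most of any region. Its highest log2 fold per library had a lowest, median and highest value of 2.56, 3.52 and 3.84 in FLAG-only, of 2.35, 3.02 and 3.49 in V5-only and of −4.68, 1.11 and 2.18 in RBP libraries. Every tag-only value thus lay above every RBP value, while the antibodies overlapped each other. Its lowest values came from the tagged HNRNPC libraries, −4.15 in isoform 1 and −4.68 in isoform 2. Region 11, at chr6:26158355-26158828 on the plus strand, ran from 2.83 through a median of 3.85 to 4.76 in FLAG-only, from 1.93 through 3.31 to 4.29 in V5-only and from −2.21 through 0.19 to 2.03 in the 9 RBP libraries with a peak. Here V5-only at 25 to 100 kDa, with 1.93, fell just below FMR1 wild type, with 2.03.

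Region 10, at chr6:26156607-26157332 on the plus strand and called in all 25 libraries, held the highest significant fold of the tag-only libraries. Its highest log2 fold ran from 2.56 through 3.64 to 5.49 in FLAG-only, from 2.15 through 2.77 to 4.29 in V5-only and from −4.20 through 0.80 to 2.59 in RBP libraries. The value of 5.49 belonged to FLAG-only at 175 to 250 kDa, at a peak of 7 nt, chr6:26157304-26157310. FLAG-only at 100 to 175 kDa had a peak over the same place, chr6:26157298-26157317, with a log2 fold of 4.85 and a −log10 p of 55.8. Both peaks lay near the 3′ end of the region. Whether the fold of the 7-nt peak rests on few input reads was not tested.

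Region 37, at chr6:27860481-27860938 on the minus strand, was significant in 6 FLAG-only, 2 V5-only and 1 RBP library. Values ran from 2.55 through 3.38 to 5.04 in FLAG-only and from 1.82 through 2.28 to 4.55 in V5-only, whose highest came from 100 to 175 kDa. RBP libraries ran from −2.86 through 1.04 to 6.10. The top value, from FMR1 FLAG, was the highest significant fold in the whole cluster, and the other RBP libraries reached at most 1.91. Whether that top value rests on few input reads was not tested.

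Region 28, at chr6:27114142-27114612 on the minus strand, had 8 libraries with a significant peak. FLAG-only ran from 2.74 through 3.47 to 4.02, V5-only from 1.73 through 2.82 to 3.98 and the 8 RBP libraries with a peak from −4.56 through 0.57 to 1.25, so tag-only and RBP values did not overlap. Region 36, at chr6:27833125-27833567 on the plus strand, also had 8. Its median was the highest of any region in FLAG-only, at 3.99, in a range of 2.50 to 4.42. V5-only ran from 1.15 through 2.83 to 3.60. Both FLAG-only and V5-only overlapped the 6 RBP libraries with a peak, at −0.09 to 2.81.

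Regions 7, 8, 16 and 31 were significant in 7 libraries each. Region 7, at chr6:26104181-26104504 on the plus strand, was significant in 6 FLAG-only libraries and 1 V5-only library, with medians of 3.49 and 1.86. Region 8, at chr6:26123697-26124143 on the minus strand, had 4 and 3, with medians of 3.50 and 2.57. Region 16, at chr6:26204860-26205758 on the plus strand, had 5 and 2, with medians of 3.05 and 2.87. Its 899 nt make it the longest. Region 31, at chr6:27775965-27776421 on the plus strand, had 4 FLAG-only, 2 V5-only and 1 RBP library. Regions 14, at chr6:26199030-26199509, and 30, at chr6:27775267-27775693, both on the minus strand, were significant in 6 tag-only libraries each. In region 30 the antibodies had 3 libraries each and the median was higher in V5-only, at 2.94 against 2.62.

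In regions called with both antibodies of a gel range, FLAG-only usually had the higher fold. This held for 25 of 28 regions at 25 to 100 kDa, 27 of 31 at 50 to 125 kDa and 24 of 27 at 75 to 150 kDa. It held for 19 of 26 at 100 to 175 kDa, 21 of 24 at 125 to 200 kDa, 25 of 29 at 150 to 225 kDa and 21 of 26 at 175 to 250 kDa. Folds were higher in FLAG-only over the whole lists too. There the median log2 fold over all peaks, not the highest of a region, ran from 1.33 to 2.89 in FLAG-only and from 1.16 to 2.37 in V5-only.

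Of the 38 regions, 7 had no significant peak in any library: regions 5, 13, 17, 18, 19, 22 and 27. Region 5, at chr6:26033365-26033786 on the minus strand, had the most peaks of these, 19 in 14 libraries. Its highest log2 fold was 3.67 in FMR1 FLAG and 3.17 in LIN28 wild type, past the fold but short of the −log10 p of 3, and at most 2.46 in FLAG-only and 2.70 in V5-only. Region 18, at chr6:26217215-26217639 on the plus strand, had 7 peaks and reached 2.83 in V5-only at 150 to 225 kDa. Together with region 17 it formed the back-to-back pair with fewest peaks, 4 and 7. Region 1 showed the same limit of the p-value, since V5-only at 100 to 175 kDa reached a log2 fold of 3.63 there without being significant.

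**Figure D4:**
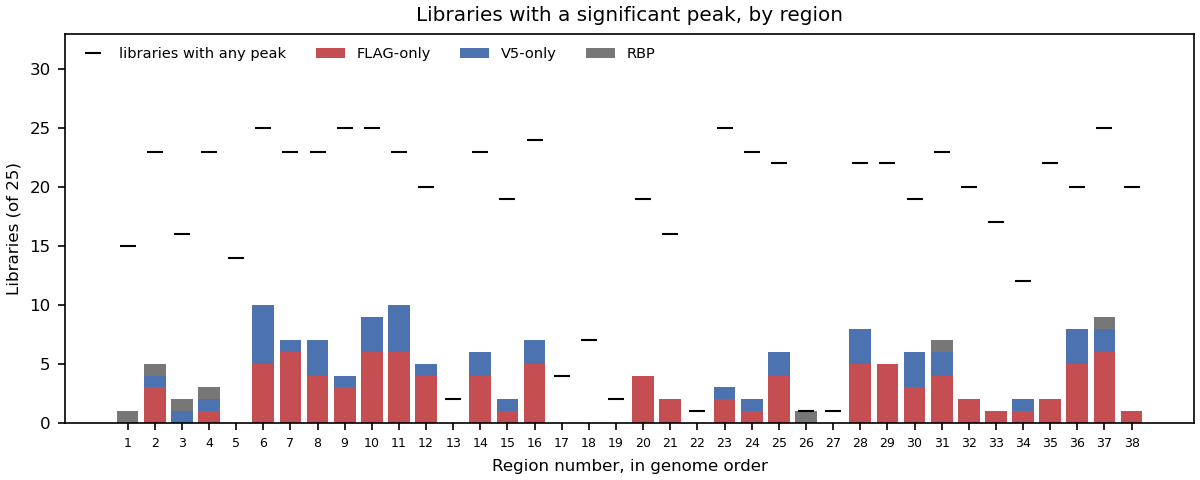
Number of libraries, of 25, with a significant peak in each of the 38 regions in genome order: stacked bars for FLAG-only (red), V5-only (blue) and RBP (grey) libraries, with a black dash for the number of libraries with any called peak. Regions 6 and 11 reach 10 libraries, and 7 regions have no bar.

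The 11 significant RBP peaks came from FMR1 FLAG, in 2 regions, and from LIN28 V5, in 5. FMR1 FLAG had 3 in region 37 and 3 in region 4. In region 37 the peaks were chr6:27860481-27860512 with a log2 fold of 6.10 (−log10 p 15.7), chr6:27860529-27860627 with 3.01 (18.3) and chr6:27860880-27860927 with 3.26 (20). The strongest lay at the region's 3′ end and the last near its 5′ end. In region 4, at chr6:26031821-26032269 on the minus strand, they were chr6:26031839-26031851 with 4.42 (9.91), chr6:26031895-26031921 with 5.10 (15.7) and chr6:26031922-26031964 with 3.62 (17.2). These lay together in the 3′ part. FMR1 wild type had peaks in both regions, with highest log2 folds of 1.13 in region 37 and 1.30 in region 4. Region 4 was also significant in 1 FLAG-only and 1 V5-only library, at 125 to 200 kDa with 3.32 and at 175 to 250 kDa with 3.2. The FMR1 FLAG peaks of 6.10 and 5.10 had the same −log10 p, 15.6576, as the 7-nt FLAG-only peak in region 10. That value may be a limit of the calculation rather than a measured one. Input reads were not counted here, so whether these high folds rest on few input reads was not tested.

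LIN28 V5 had 1 significant peak in each of 5 regions, 3 of them among the first 3 of the cluster. They were chr6:26021029-26021078 in region 1, with a log2 fold of 3.04 (−log10 p 10.9), chr6:26022052-26022113 in region 2, with 4.15 (9.35), and chr6:26027256-26027330 in region 3, with 3.91 (25.4). The others were chr6:27106094-27106128, which is the whole of region 26, with 3.48 (7.88), and chr6:27775965-27776030 in region 31, with 3.43 (20.7). LIN28 wild type reached 1.59 in region 1, 1.39 in region 2, 2.06 in region 3 and 0.94 in region 31, and had no peak in region 26. All of these lay below the threshold. In region 2, at chr6:26021914-26022265 on the plus strand, FLAG-only ran from 0.06 through 1.66 to 4.16 and V5-only from −0.34 through 2.20 to 3.01, so LIN28 V5 stood beside the highest FLAG-only library there.

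Enrichment in tag-only libraries was higher toward the 3′ end of the regions. The 22 regions with peaks in at least 20 libraries were divided into 3 equal parts along their strand, and peaks were placed by their midpoint. In FLAG-only libraries 23 of 191 peaks (12%) were significant in the 5′ part, 44 of 173 (25.4%) in the middle part and 65 of 157 (41.4%) in the 3′ part. In V5-only libraries the counts were 9 of 167 (5.39%), 10 of 148 (6.76%) and 35 of 160 (21.9%). The median log2 fold was higher in the 3′ than in the 5′ part in 7 of 7 FLAG-only libraries, by 0.43 to 1.03 (mean 0.75 ± 0.24, SD), and in 7 of 7 V5-only libraries, by 0.28 to 1.03 (mean 0.64 ± 0.26, SD).

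The share of significant peaks did not rise steadily in every library. In FLAG-only at 125 to 200 kDa the middle part had the most, 21 of 22, with 12 of 26 in the 5′ and 13 of 20 in the 3′ part. FLAG-only at 50 to 125 kDa had 1 of 25, 6 of 30 and 1 of 18 from the 5′ to the 3′ part, so there too the middle part stood highest. Without the range of 125 to 200 kDa, tag-only libraries had 14 of 310 (4.52%), 25 of 279 (8.96%) and 73 of 275 (26.5%) significant from the 5′ to the 3′ part. RBP libraries showed no common direction, with the 3′ part higher in 6 of 11 and a mean difference of 0.11 ± 0.41 (SD), in a range of −0.58 to 0.71. FMR1 wild type had equal medians, and the HNRNPC libraries and RBFOX2 wild type were lower in the 3′ part. Peaks of all RBP libraries together had a median of 0.22 in the 5′ part and 0.70 in the 3′ part. Of these peaks 2 of 206 and 5 of 112 were significant. FMR1 FLAG had 5 of its 22 peaks in the 3′ part significant and 1 of 29 in the 5′ part. Several RBP values rest on few peaks, as in HNRNPC V5 isoform 2 with 7 peaks in the 5′ and 2 in the 3′ part. The division was chosen after values had been seen and region bounds are set by the peaks themselves, so no p-value is given, and the distance to the stem-loop was not measured.

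**Figure D5:**
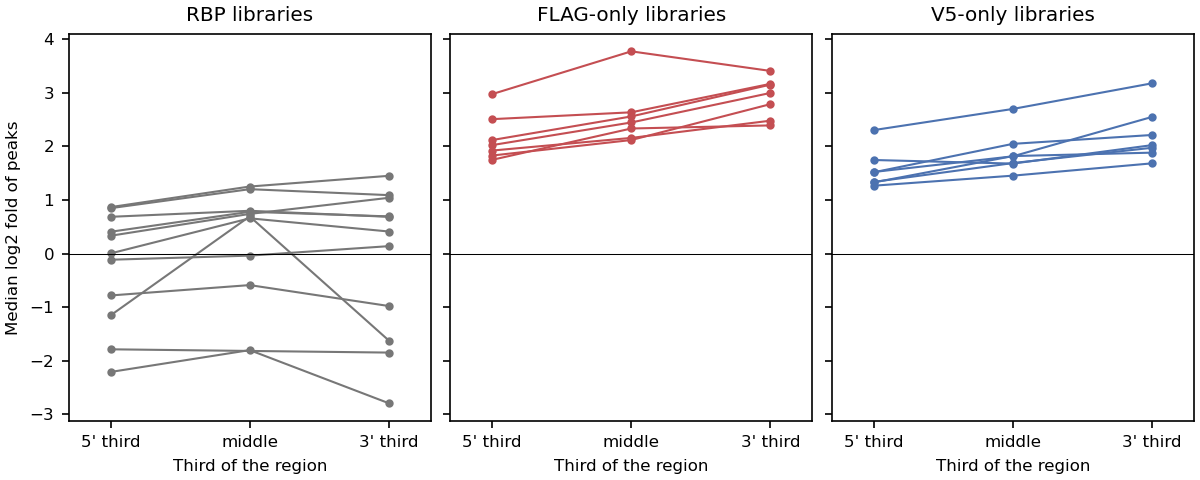
Median log2 fold over input of peaks in the 5′, middle and 3′ part of the 22 regions called in at least 20 libraries, with 1 line per library and a panel each for RBP (11), FLAG-only (7) and V5-only (7) libraries. The 3′ point lies above the 5′ point in all 14 tag-only lines and in 6 of 11 RBP lines.

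Wild-type and tagged libraries of the same RBP were compared over the cluster. The cluster's share of significant peaks was 0 in all 5 wild-type libraries and averaged 0.0198% in the tagged ones, with 2 of 5 RBPs, FMR1 and LIN28, above 0. The difference was 0.0198 ± 0.0290 points (SD; exact sign-flip permutation p = 0.5, adjusted p = 0.609, n = 5). With 5 differences other than 0 the smallest possible p would be 0.0625, so this design cannot reach the usual threshold of 0.05. Here the other RBPs had a share of 0 in both states, and flipping their signs changes nothing. The p of 0.5 was thus fixed once FMR1 and LIN28 differed in the same direction, and it decides nothing about a difference. At the level of called peaks, 54 of 64 FMR1 wild-type peaks (84.4%, 95% Wilson interval 73.6% to 91.3%) overlapped an FMR1 FLAG peak and 49 of 65 LIN28 wild-type peaks (75.4%, 63.7% to 84.2%) a LIN28 V5 peak. The shares were lower for DGCR8, with 25 of 50 (50.0%, 36.6% to 63.4%), for RBFOX2, with 16 of 40 (40%, 26.3% to 55.4%), and for HNRNPC, with 6 of 30 against isoform 1 (20%, 9.51% to 37.3%) and 4 of 30 against isoform 2 (13.3%, 5.31% to 29.7%). Seen from the tagged lists, the overlapped shares were 67.1% of 85 peaks for FMR1, 63.6% of 88 for LIN28, 62.8% of 43 for DGCR8, 44.1% of 34 for RBFOX2, 50.0% of 12 for HNRNPC isoform 1 and 40% of 10 for isoform 2. FMR1 FLAG and LIN28 V5 also had the most cluster peaks of the tagged libraries, and the part of that number in the overlap was not tested. Their whole lists were long too, with 100860 and 73182 peaks, against 49319 in HNRNPC V5 isoform 1 and 25723 in DGCR8 FLAG. Overlap over the whole lists was not measured, so these shares cannot be read as particular to the cluster.

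Region by region, the tagged library had the higher fold for some RBPs and not for others. The tagged value was higher in 23 of 27 regions for FMR1 (median difference of log2 folds 0.94), in 26 of 29 for LIN28 (0.81) and in 14 of 19 for RBFOX2 (0.54). It was higher in 8 of 20 regions for DGCR8 (−0.13) and in 3 of 9 for HNRNPC isoform 1 (−0.20). For HNRNPC isoform 2 it was higher in 3 of 6, with a median difference of 0.06. Over the whole lists the median log2 fold was higher in the tagged library for FMR1, at 2.09 against 1.55, and for HNRNPC isoform 1, at 1.11 against 1.05. It was lower for LIN28, at 1.51 against 1.59, for RBFOX2, at 1.3 against 1.5, and for DGCR8, at 1.68 against 1.74. These medians are over all peaks, whereas a region's value is its highest and can rise with the number of peaks. As a median over all cluster peaks, the tagged value was 1.37 against 0.69 for FMR1, 1.09 against 0.71 for LIN28 and −0.02 against −0.63 for RBFOX2. It was −1.31 against −1.70 for HNRNPC isoform 1, −1.81 against −1.70 for isoform 2 and 0.41 against 0.72 for DGCR8. Each of these comparisons rests on 1 library per state and has no replicate check.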

How the data were processed

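The deposited files were 25 peak lists without headers, 1 per immunoprecipitation library, so peaks had been called per library. The files of the 18 inputs were not used. Before deposit the authors had normalised each peak to its size-matched input, computing a −log10 p-value and a log2 fold for it, per the labels and the naming of the files. These values describe, rank or filter peaks here. The build is hg19, and cutadapt, STAR, GATK, Picard and SAMtools are named without versions, per the submitters' processing notes. No caller of the peaks is given in the sources used here.

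Positions are 1-based. Overlaps needed 1 nt on the same strand, and region value is the highest log2 fold of its peaks in a library. Members and lists were chosen with earlier results of these data known. Named regions are the 12 significant in most libraries (ties, as of regions 25 and 30 with 6 each, went to the higher median of the highest significant log2 fold), those with the highest significant fold in each RBP library and each tag, and the 2 with most peaks and no significant one. Other regions named were chosen after their values were seen. Sign-flip and permutation tests were run in Python 3.11.15 with numpy 2.4.6, pandas 2.3.3 and scipy 1.17.1, tested on simulated data, with Benjamini-Hochberg adjustment over 5 tests. A planned sixth comparison, of regions shared by both antibodies of a gel range, was left out because those libraries appear to share an input. Alternatives were other thresholds, overlap of at least 50%, other merging distances, covered nucleotides, the first window alone and leaving out gel ranges.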

Additional observations from a re-analysis of the deposited data

Results flagged for a closer look

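Among the V5-only libraries, that of 125 to 200 kDa was far from the rest in the cluster. It had 30 significant cluster peaks, and the library nearest to it had 9. As a share of its cluster peaks this was 41.7%, with 10.8% in the nearest library. Of all its peaks 11.5% were significant, against at most 3.1% in the other V5-only libraries, and its median cluster log2 fold lay 0.23 above that of its list, inside the range of the others. V5-only at 25 to 100 kDa had a median cluster log2 fold 0.50 above that of its list, and the nearest V5-only library had 0.24. FLAG-only at 25 to 100 kDa had the highest such value with its antibody too, 0.73. These were the 3 values far from the rest among 14 sets of 7 libraries. Chance gives such a value in about 1 in 20 sets, and the first pair of values are not independent.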

How the results depend on the processing

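The contrast of RBP and tag-only libraries kept its direction and its call under each alternative run. The difference between FLAG-only and V5-only in the cluster's share of significant peaks, which missed the threshold, turned to −0.0263 points when nucleotides were counted instead of peaks and to −0.00700 without the range of 50 to 125 kDa, the lowest value with 1 range left out, where the highest was 0.111. With 6 ranges the smallest exact p is 0.0312, or 0.0521 after adjustment, so leaving out any range ends both calls between the antibodies by construction. The share of cluster peaks significant was then 12.7 points higher in FLAG-only without 125 to 200 kDa and 12.4 to 15.4 points higher without another range. The centred median was 0.20 higher without 125 to 200 kDa and 0.19 to 0.23 higher without another range. In the first window alone it was 0.24 higher, in 6 of 7 ranges, and missed the threshold (exact sign-flip p = 0.0312, adjusted p = 0.0521). The cause was not tested. Over the 25 libraries, 10.9% of cluster peaks were significant at a −log10 p of at least 5, 35.7% at a log2 fold of at least 2 and 2.88% when lists were limited to the 1000 peaks with the highest fold. Merging only touching peaks gave 122 regions in place of 38. With an overlap of at least 50%, the share of wild-type peaks overlapped fell to 57.8% in FMR1, 58.5% in LIN28, 26% in DGCR8 and 15% in RBFOX2. Of the counts for single libraries and regions, 63 stayed within 1.5 times and 42 did not. Many of the 63 were counts of 0 that stayed 0, as in all HNRNPC and RBFOX2 libraries, and these say little about stability. Low numbers of cluster peaks in HNRNPC limit what could be detected there. The planned comparison of shared regions and its alternatives were not run.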
